A study of Mus musculus with 3 samples.

Results

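The genes described here are 46 mouse orthologs of genes of human chromosome 21. They lie on the distal part of mouse chromosome 16 and are defined by a list of names within that stretch. The list is not complete. A further 21 orthologs there with usable values, such as Runx1 and the interferon receptor genes, are outside it and are counted separately below. The orthologs, where not said otherwise, are the 46. The set stops at Morc3, where usable values on that chromosome end (below), so the values did bear on its extent. They are 46 of the 38205 gene identifiers in the deposited tables. Each had 1 row per library, and all 46 had the status OK. They were followed by RNA sequencing of LSK cells, the fraction of blood cells that lacks lineage markers, carries Sca1 and c-Kit on its surface, and holds stem cells and multipotent progenitors. The cells were sorted from fetal livers of C57Bl/6 embryos at E14.5.

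Embryos of 3 genotypes were used, namely WT, hemizygous and homozygous for a transgene that encodes DNMT3B7, a DNMT3B DNA methyltransferase protein that has lost part of its sequence. Which promoter drives the transgene, how many founder lines there were and the sex of the embryos are not stated in those sources that were used. Each genotype had 1 library, made from cells pooled from 4 to 5 embryos. No difference below therefore has a replicate check, and each one compares libraries and not genotypes. In bulk RNA, fewer cells of a type and less RNA per cell cannot be told apart.

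Trisomy of human chromosome 21 causes Down syndrome, which includes a transient blood disorder of the newborn and a raised risk of leukaemia. Most of the genes on the long arm of that chromosome have their mouse orthologs on distal chromosome 16, and the rest on chromosomes 17 and 10. The region on chromosome 16 holds genes of unrelated function in 1 conserved order, among them housekeeping genes, genes of the nervous system and the blood transcription factor Runx1. The labels name no trisomy in the embryos used here, and the copy number of the orthologs was not measured.

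All levels are given as value, which is the deposited FPKM (fragments per kilobase of transcript, scaled to library depth) divided by the same constant in each library. FPKM is relative to transcript length, so the levels of different genes can be set side by side. Many genes that all cells use were listed at or near 0, and usable values stood in runs at the starts of 10 chromosomes. Genes in these runs, together with 13 mitochondrial mRNAs, are called readable (1454 genes). That the name in a row belongs to the gene measured could be judged within a run from the plausibility of neighbouring genes alone, and every value below rests on it. On chromosome 16 the run covered 528 of 561 genes and ended at Morc3. Before that gene 231 of the genes were high, and after it 0 were. The sort markers Kit and Ly6a (Sca1) were not readable and stood at 0 in the WT library, so these 2 genes gave no check of the cell type. Of the 7 stem cell genes listed for that check, Runx1 was the readable one, at 152 in WT, 153 in hemizygous and 132 in homozygous cells. The low values gave about 3040000, 3030000 and 2330000 fragments on genes in the WT, hemizygous and homozygous library.

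The promoters of 6 orthologs are printed first, because DNMT3B acts on CpG dinucleotides and because these promoters cover low and high CpG numbers and low and high levels among the orthologs. Each line gives the 250 bases before the first RefSeq start of the gene (GRCm38.p6), 5′ to 3′ on the strand of the gene, with every CpG in capitals. Cct8 lies at chr16:87495870-87496119 (minus strand) and Son at chr16:91647574-91647823 (plus strand), and they were the 2 orthologs with the highest level. Samsn1 (chr16:75909267-75909516, minus strand) and Nrip1 (chr16:76373828-76374077, minus strand) were expressed with few CpGs in this window. Ncam2 (chr16:81200447-81200696, plus strand) and Hunk (chr16:90386147-90386396, plus strand) were CpG-rich genes listed at 0 or below a value of 1.
Cct8: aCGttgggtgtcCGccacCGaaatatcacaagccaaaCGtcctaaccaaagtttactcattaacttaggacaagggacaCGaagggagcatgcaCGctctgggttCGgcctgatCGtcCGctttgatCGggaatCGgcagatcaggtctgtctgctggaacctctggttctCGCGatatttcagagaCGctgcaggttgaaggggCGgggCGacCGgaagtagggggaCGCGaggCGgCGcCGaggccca
Son: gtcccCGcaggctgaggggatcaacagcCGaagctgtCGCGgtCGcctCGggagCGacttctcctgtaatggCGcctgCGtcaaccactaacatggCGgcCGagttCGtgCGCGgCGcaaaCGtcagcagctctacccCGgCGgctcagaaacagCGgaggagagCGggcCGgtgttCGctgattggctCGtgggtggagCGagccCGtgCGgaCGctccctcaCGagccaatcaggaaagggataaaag
Samsn1: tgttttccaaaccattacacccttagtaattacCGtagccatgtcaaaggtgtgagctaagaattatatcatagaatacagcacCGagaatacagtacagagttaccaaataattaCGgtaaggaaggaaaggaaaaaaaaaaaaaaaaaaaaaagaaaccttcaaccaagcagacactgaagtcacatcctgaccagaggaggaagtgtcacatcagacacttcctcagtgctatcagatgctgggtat
Nrip1: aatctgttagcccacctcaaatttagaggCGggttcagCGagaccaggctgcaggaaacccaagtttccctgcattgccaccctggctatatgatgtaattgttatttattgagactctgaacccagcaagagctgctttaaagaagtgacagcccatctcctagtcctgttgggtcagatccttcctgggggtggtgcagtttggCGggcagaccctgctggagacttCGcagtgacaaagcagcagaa
Ncam2: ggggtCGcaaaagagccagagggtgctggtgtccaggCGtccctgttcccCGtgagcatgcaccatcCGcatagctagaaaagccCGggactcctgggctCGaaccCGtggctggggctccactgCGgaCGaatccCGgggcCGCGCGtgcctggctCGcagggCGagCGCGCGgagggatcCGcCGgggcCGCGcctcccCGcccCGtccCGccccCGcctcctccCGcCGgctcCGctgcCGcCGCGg
Hunk: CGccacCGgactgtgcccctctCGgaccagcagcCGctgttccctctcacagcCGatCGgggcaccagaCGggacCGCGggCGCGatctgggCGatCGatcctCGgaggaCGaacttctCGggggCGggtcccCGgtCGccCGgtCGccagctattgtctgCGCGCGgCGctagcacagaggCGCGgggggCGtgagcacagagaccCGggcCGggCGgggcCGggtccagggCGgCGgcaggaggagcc
The counts of CpG in these windows were 22 for Cct8, 28 for Son, 3 for Samsn1, 4 for Nrip1, 32 for Ncam2 and 34 for Hunk. The first pair are housekeeping genes, and the last pair encode a neural adhesion molecule and a protein kinase. High and low CpG number thus both occurred among expressed orthologs, and high CpG number also among those listed at 0 or below 1. No DNA methylation was measured in these libraries.

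In WT cells 35 of the 46 orthologs had a value of at least 1, a share of 76.1%, against 69.3% of the 1061 readable nuclear protein-coding genes. The median over all 46 was 31.7, and 22.9 over the readable nuclear protein-coding genes. The latter include olfactory receptor and keratin-associated protein genes listed at 0, families that the orthologs lack. At least 100 was reached by 8 orthologs (17.4%), against 28.8% of the readable nuclear protein-coding genes and 24.1% of those on chromosome 16. These 46 genes thus held a smaller share of very high genes than the readable genes as a whole, with no test of that difference. The share depends on which orthologs are in the set. Of the 22 others found in the list for the same stretch (below), Atp5j (729), Atp5o (575), Runx1 (152) and more were past 100 in WT. In that list 4 were at 0 in all 3 libraries. The smaller share is therefore not read as a trait of all orthologs there. In the hemizygous and the homozygous library 34 and 35 orthologs had a value of at least 1.

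**Figure D1:**
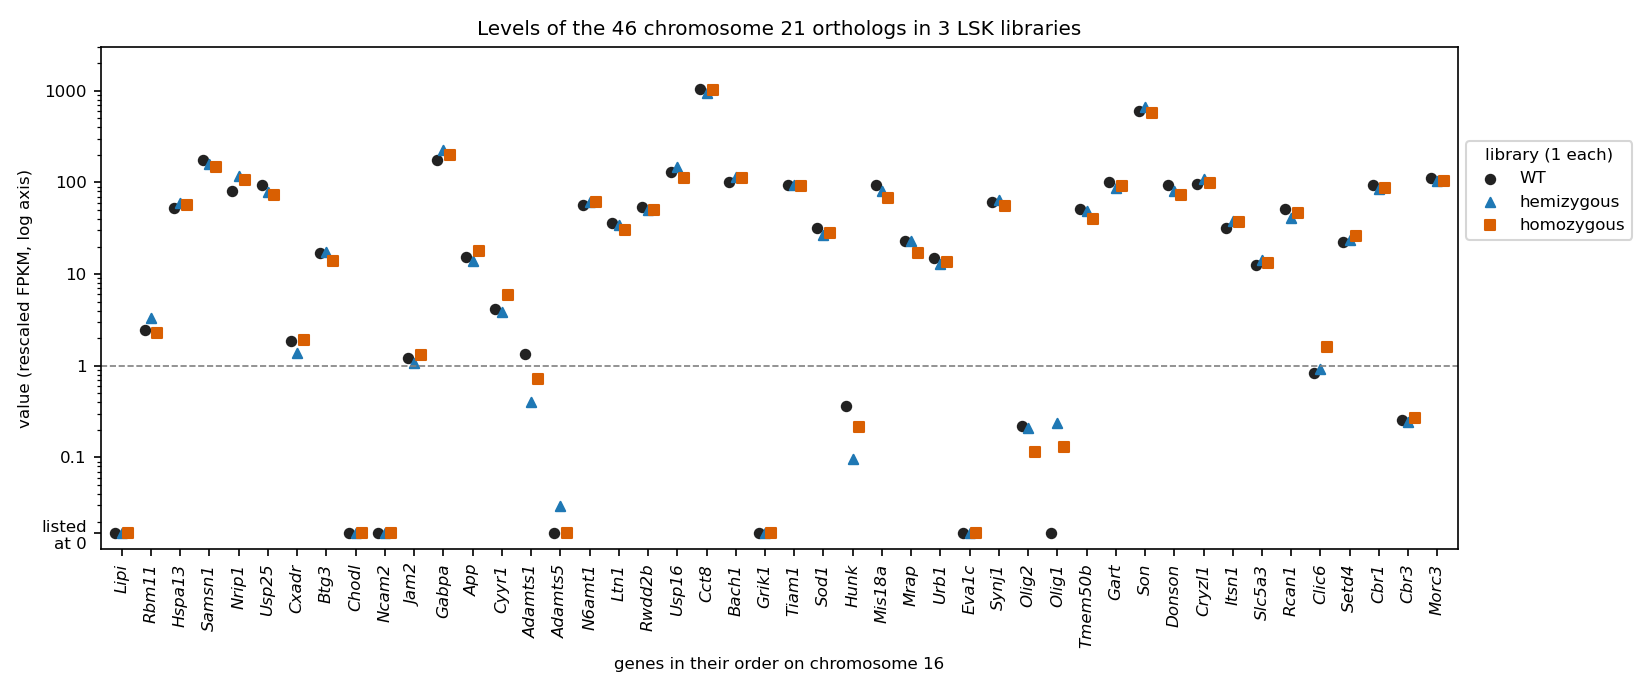
Value (deposited FPKM divided by a common constant, log axis) of each of the 46 orthologs in the WT, hemizygous and homozygous library, 1 library each, in the order of the genes on chromosome 16; the dashed line is a value of 1. Cct8 (944 to 1057) and Son (571 to 664) stand highest in all 3 libraries, and 5 genes are listed at 0 in all 3.

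The highest level belonged to Cct8, a subunit of the TRiC chaperonin that folds actin and tubulin. Its value was 1057 in WT, 944 in hemizygous and 1023 in homozygous cells, and it ranked 26 of 1061 among readable nuclear protein-coding genes in WT. Son followed at 598, 664 and 571 in the same order of libraries, with a rank of 48. It encodes a protein of nuclear speckles that is needed for the splicing of weak introns. Cct8 and Son stood far above the third gene, Gabpa, which had 178, 226 and 198. The order of the highest genes depended on the length taken: by estimated fragments in place of value per length, 5 or 6 of the 10 highest orthologs were among the same 10, depending on whether the median or the longest transcript was used, and Son then came before Cct8.

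Between the libraries the orthologs differed little, about as much as readable protein-coding genes did (next paragraph). The log2 ratio of value + 1 was used, with a 95% interval from the estimated fragments that covers counting error only. A ratio of at least 2-fold in either direction was the size rule. The intervals rest on the median transcript length. With the longest transcript they can be narrower, so an interval said to hold 0 might then leave it out. Of 36 orthologs measured in homozygous and WT cells (at least 1 in one library or both), 0 passed the size rule, against 42 of 955 readable genes (4.4%). In hemizygous against WT cells 0 of 35 passed it, against 26 of 954 (2.73%), and in homozygous against hemizygous cells 0 of 35, against 44 of 962 (4.57%). With background shares this low, a count of 0 among so few genes is close to the background and is not read as a result about the orthologs. The comparisons with WT share the WT library, and the comparison of homozygous with hemizygous cells shares both of its libraries with them.

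The median log2 ratio over the measured orthologs was -0.08 in homozygous against WT cells, beside -0.04 over all readable genes. It was -0.08 in hemizygous against WT cells, beside 0.02 over all readable genes. It was -0.02 in homozygous against hemizygous cells, beside -0.06. The ratios in homozygous against WT cells ran from -0.46 (Mis18a) to 0.50 (Clic6), so 0 of 36 went past 1.5-fold, against 12.5% of all readable genes. Against WT, 34 of 35 orthologs in the hemizygous library stayed within 1.5-fold. The exception was Adamts1, at a log2 ratio of -0.75, where 7.97% of all readable genes went past 1.5-fold. In homozygous against hemizygous cells 0 of 35 went past it, against 11.4% of readable genes.

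These ratios rest on the deposited scaling. The 13 mitochondrial mRNAs took 74.9%, 72.0% and 64.8% of the summed value of the readable genes in the WT, hemizygous and homozygous library. When each library was scaled to the same sum over the readable genes, the median over all readable genes became 0.49, 0.22 and 0.29 in the 3 comparisons, and the median over the orthologs 0.42, 0.11 and 0.33. The orthologs thus moved with the other genes under that scaling, and directions below are those of the deposited scaling. Scaling by median ratios or by the sum over nuclear genes left the ortholog medians within 0.07 of those given, though that of homozygous against hemizygous cells became 0.03 with median ratios.

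**Figure D2:**
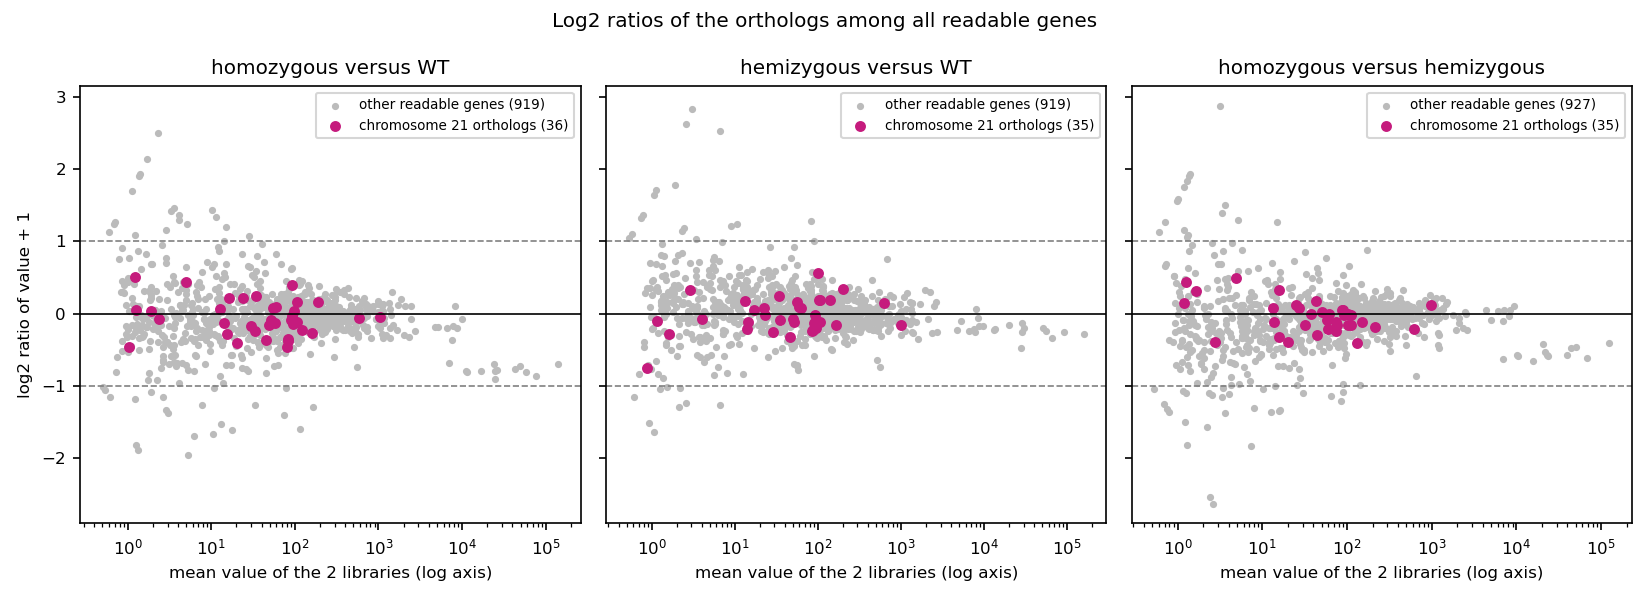
Log2 ratio of value + 1 against the mean value of the 2 libraries (log axis) for the orthologs and all other readable genes, 1 panel per comparison; dashed lines mark the 2-fold size rule. The orthologs lie inside the dashed lines in all 3 panels under the deposited scaling, with ratios from -0.75 to 0.56 over the 2 comparisons with WT.

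Of the transcription and chromatin genes, Nrip1 had the highest ratios to WT. It encodes RIP140, a corepressor of nuclear receptors. Its value was 80.2 in WT, 119 in hemizygous and 106 in homozygous cells, so both transgenic libraries were above WT. The log2 ratio to WT was 0.56 in hemizygous cells (SE 0.08, interval 0.41 to 0.71) and 0.40 in homozygous cells (SE 0.08, interval 0.24 to 0.56). Of the 30 orthologs with a value of at least 5 in every library, Nrip1 had the largest fold between its highest and lowest library, 1.48.

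Gabpa encodes the DNA-binding subunit of the ETS factor GABP, which acts on many housekeeping and mitochondrial genes. Its value was 178 in WT, 226 in hemizygous and 198 in homozygous cells. The hemizygous library was the highest, with a log2 ratio to WT of 0.34 (SE 0.09, interval 0.17 to 0.52), and the interval of the homozygous ratio, 0.16, held 0. Bach1, a repressor released from DNA by heme, had 100, 114 and 112. Both ratios of Bach1 to WT, 0.18 in hemizygous and 0.16 in homozygous cells, were small, and their intervals left out 0.

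Mis18a, which prepares the centromere for the histone variant CENP-A, had the lowest homozygous to WT ratio of all measured orthologs. Its value was 94.3 in WT, 80.7 in hemizygous and 68.1 in homozygous cells. The log2 ratio of homozygous to WT was -0.46 (SE 0.11, interval -0.67 to -0.25) and that of hemizygous to WT -0.22 (interval -0.42 to -0.03). When the libraries were scaled to the sum over readable genes the first of these became 0.09 and the second -0.02, where the median of all readable genes became 0.49 and 0.22, so Mis18a stayed below that median.

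The other genes of this group differed less. Morc3, an ATPase of nuclear bodies and the last readable gene of the run, had 112, 103 and 102 in WT, hemizygous and homozygous cells, a log2 ratio to WT of -0.12 in both transgenic libraries. N6amt1, a methyltransferase subunit, had 57.1, 60.7 and 60.6, and Setd4, a protein with a SET methyltransferase domain, had 22.1, 23.5 and 25.8. For these 3 genes each interval against WT held 0. Olig2, a neural lineage factor, stood at 0.22, 0.21 and 0.12. Its neighbour Olig1 was listed at 0 in WT and stood at 0.24 and 0.13 in the transgenic libraries, which is under the value that 3 fragments would give in WT (0.38).

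The protein folding and turnover genes were all expressed, with WT values from 36.2 to 1057. Usp16, a deubiquitinase that acts on histone H2A, had 131 in WT, 149 in hemizygous and 112 in homozygous cells. Hemizygous was the highest library and homozygous the lowest, and the log2 ratio between those 2 was -0.41 (SE 0.08, interval -0.57 to -0.25). Under the scaling to the readable sum it was -0.06, where the median of all readable genes was 0.29. Usp25, another deubiquitinase, had 92.6, 77.9 and 72.0, with a homozygous to WT ratio of -0.36 (interval -0.67 to -0.04).

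Ltn1, the E3 ligase that marks nascent chains on stalled ribosomes, had 36.2, 34.1 and 30.4. Its homozygous to WT ratio was -0.25 (interval -0.40 to -0.09). Hspa13, an atypical Hsp70 of microsomes, had 53.1, 59.8 and 56.3, with a hemizygous to WT ratio of 0.17, whose interval began at 0.00. Cct8 was lowest in the hemizygous library, at a log2 ratio to WT of -0.16 (interval -0.25 to -0.08), which became 0.04 under the scaling to the readable sum. Its homozygous ratio to WT was -0.05, and that interval held 0. The median ratio of homozygous to WT over the 5 genes was -0.23.

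The genes of RNA processing, ribosome biogenesis, replication and growth control ranged from Son to Rbm11. The value of Son in hemizygous cells gave a log2 ratio to WT of 0.15 (SE 0.02, interval 0.10 to 0.20), and in homozygous cells of -0.06 (interval -0.11 to -0.02). With about 7062 estimated fragments in WT, Son had the narrowest intervals of the orthologs. Its homozygous ratio became 0.01 when libraries were scaled to the nuclear sum and 0.49 when scaled to the readable sum, so its sign depended on the scaling. Donson, which protects replication forks, had 94.3, 80.5 and 72.3. Its ratio of homozygous to WT was -0.38 (SE 0.09, interval -0.56 to -0.20). Scaled to the readable sum, its homozygous ratio became 0.17 and its hemizygous ratio -0.02, where the medians of all readable genes became 0.49 and 0.22.

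The rest of that group had intervals that held 0 in all 3 comparisons. Urb1, a factor of ribosome biogenesis, had 15.1 in WT, 12.9 in hemizygous and 13.7 in homozygous cells. Btg3, an antiproliferative gene of the BTG/TOB family, had 16.9, 17.6 and 13.8. Of its 50-base stretches 30.9% also occur in other transcripts, chiefly those of a pseudogene and of Cxadr, so its value is less certain. The RNA-binding protein gene Rbm11 had 2.45, 3.31 and 2.26.

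Among the enzymes, Gart was the highest. It carries 3 activities of purine synthesis in 1 protein, and its value was 100 in WT, 87.4 in hemizygous and 90.5 in homozygous cells. The quinone oxidoreductase-like gene Cryzl1 had 95.9, 109 and 98.0, and the carbonyl reductase gene Cbr1 93.2, 84.8 and 87.6. The hemizygous and homozygous ratios to WT were -0.20 and -0.15 for Gart, and 0.19 and 0.03 for Cryzl1, and each interval of the 3 genes held 0. The paralog Cbr3 stood at 0.26, 0.24 and 0.27, so the 2 neighbouring reductase genes differed in level in every library. The lipase gene Lipi was listed at 0 in all 3 libraries.

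Sod1, the cytosolic copper and zinc superoxide dismutase, had 31.9 in WT, 26.4 in hemizygous and 28.1 in homozygous cells. It ranked 493 of 1061 in WT, in the middle of the readable genes. The hemizygous ratio to WT was -0.26 (SE 0.12, interval -0.50 to -0.02) and the interval of the homozygous ratio, -0.18, held 0. Of the 50-base stretches of its transcripts 3.42% also occur in a pseudogene.

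Among the signalling and endocytosis genes, Samsn1 had the highest level. It encodes an adaptor with SH3 and SAM domains found in blood cells. Its value was 176 in WT, 158 in hemizygous and 146 in homozygous cells. Both transgenic libraries were below WT, with log2 ratios of -0.15 (interval -0.27 to -0.03) and -0.27 (SE 0.065, interval -0.40 to -0.14). Under the scaling to the readable sum these became 0.05 and 0.29, with all-gene medians of 0.22 and 0.49.

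Rcan1, an inhibitor of the phosphatase calcineurin, had 51.3, 40.7 and 45.9. The hemizygous library was the lowest, at a ratio to WT of -0.33 (SE 0.10, interval -0.53 to -0.13), and the interval of the homozygous ratio held 0. Tiam1, an exchange factor for the GTPase Rac, had 93.7, 92.9 and 92.0, and of the 30 orthologs with at least 5 in every library it varied least (1.02-fold). The endocytosis genes Synj1, a phosphoinositide phosphatase, and Itsn1, a scaffold, had 61.0, 64.5 and 55.4, and 31.4, 37.5 and 37.5. Mrap, an accessory protein of melanocortin receptors, had 23.1, 22.9 and 17.1, with few fragments and wide intervals. The kinase gene Hunk stood below 1 in all 3 libraries (0.36, 0.10 and 0.22).

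**Figure D3:**
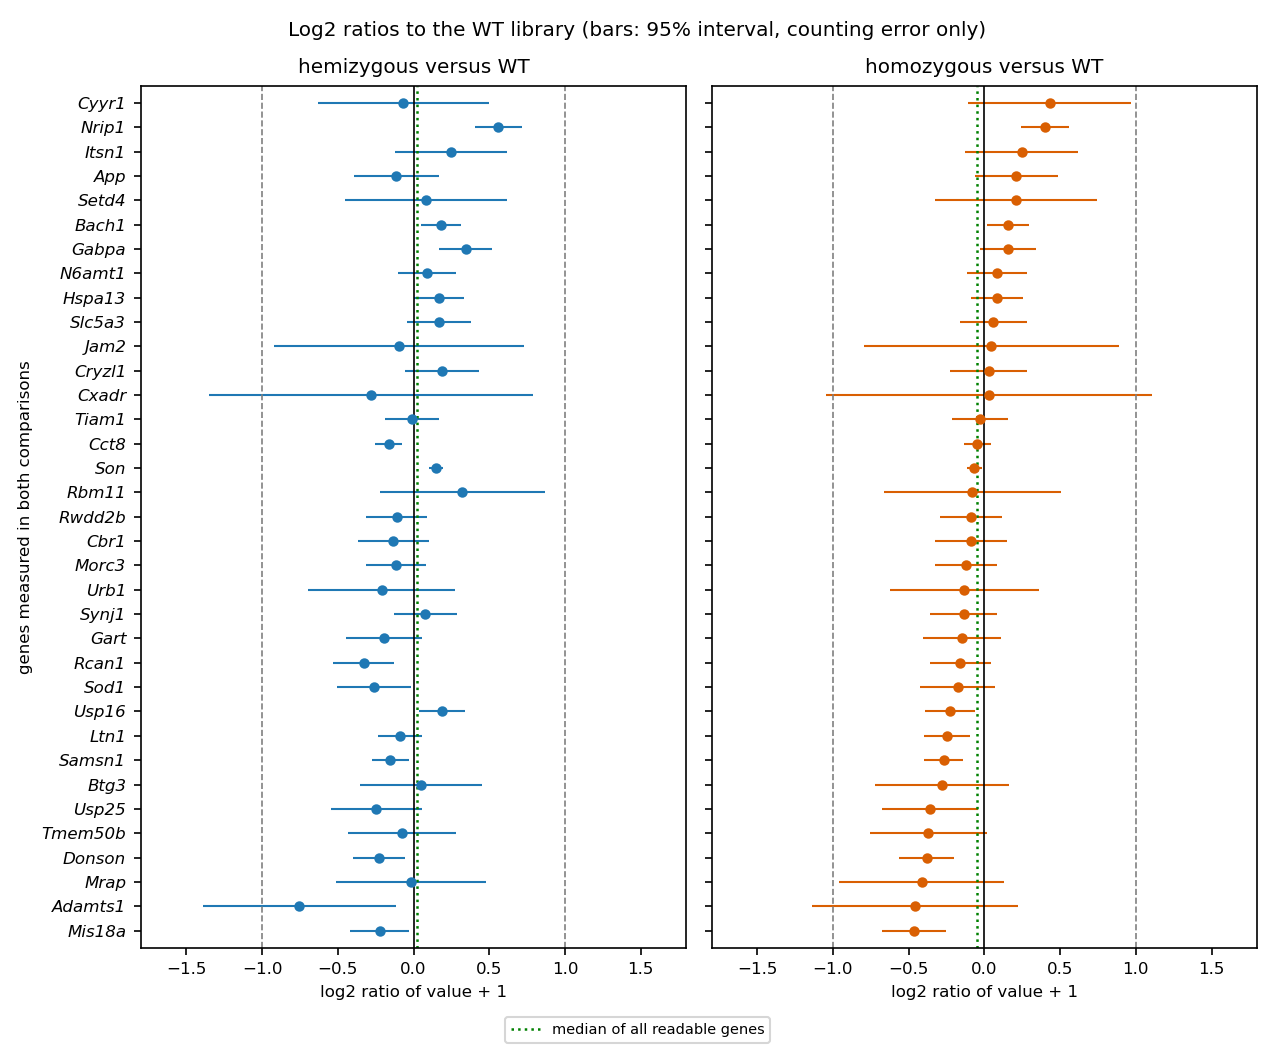
Log2 ratio of value + 1 to the WT library for the 35 orthologs measured in both comparisons, hemizygous on the left and homozygous on the right; bars are 95% intervals for counting error only, grey dashed lines the 2-fold size rule and green dotted lines the median of all readable genes. Nrip1 lies to the right in both panels (0.56 and 0.40) and Mis18a to the left (-0.22 and -0.46), under the deposited scaling.

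The cell surface and matrix genes held 5 of the 10 orthologs that were below a value of 1 in all 3 libraries. App, the amyloid precursor protein, was the highest of the 8 surface genes, with 15.2 in WT, 14.0 in hemizygous and 17.8 in homozygous cells. Its ratio of homozygous to hemizygous was 0.33 (SE 0.14, interval 0.05 to 0.60) and the intervals of both ratios to WT held 0. The membrane protein gene Cyyr1 had 4.13, 3.89 and 5.92, and all its intervals held 0. The adhesion receptors Cxadr (1.87, 1.36 and 1.93) and Jam2 (1.23, 1.08 and 1.30) were close to 1 and rested on few fragments.

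The other surface genes include Ncam2, a neural adhesion molecule, and Grik1, a glutamate receptor subunit. Ncam2, Chodl, Eva1c and Grik1 were listed at 0 in all 3 libraries, so with Lipi 5 of the 46 orthologs were. At this depth a level under that of 3 fragments, 0.19 for Ncam2 to 0.50 for Eva1c in WT, would not be told from 0. Over the 5 neural genes listed as markers, all readable, the summed value was 2.43, 1.70 and 2.02. Of that sum Gap43, which is no chromosome 21 ortholog, held the most.

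Adamts1, a secreted metalloproteinase that cleaves matrix proteoglycans, had 1.36 in WT, 0.40 in hemizygous and 0.72 in homozygous cells. That is about 11.7, 3.64 and 5.92 fragments with the median transcript length. The hemizygous ratio to WT was -0.75 (SE 0.32, interval -1.39 to -0.12) and passed the size rule when the pseudocount was 0.1 (-1.55). Its relative Adamts5 was listed at 0 in WT and homozygous cells and at 0.03 in hemizygous cells. Of the membrane transport genes, Tmem50b had 51.5, 48.8 and 39.7, the inositol transporter gene Slc5a3 12.6, 14.3 and 13.2, and Clic6, of the chloride intracellular channel family, 0.83, 0.92 and 1.60. Rwdd2b, of unassigned role, had 53.8, 49.7 and 50.6.

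Markers of other cells were few among the readable genes, and 0 of them passed the size rule in any comparison. The 2 readable vessel wall markers of 6, Col4a1 and Col4a2, summed to 52.6 in WT, 68.1 in hemizygous and 99.3 in homozygous cells. Cdh5, a defining gene of endothelium, was listed at 0 in all 3 libraries but was not readable. The ratios of App (0.21) and Cyyr1 (0.43) to WT in homozygous cells have the same direction as those of the 2 collagens (0.80 and 0.97), but their intervals held 0. In hemizygous cells the collagens were above WT (0.30 and 0.41), and App (-0.11) and Cyyr1 (-0.07) below. Adamts1 was below WT in homozygous (-0.46) and hemizygous cells (-0.75). The part of vessel wall cells in these orthologs was not tested. Gp5, the 1 readable platelet lineage marker of 4, had 16.5, 17.7 and 30.1. The 4 readable erythroid markers of 7 summed to 3987 in WT, 4012 in hemizygous and 3285 in homozygous cells, with a median log2 ratio of homozygous to WT of -0.21. Of these markers Tfrc (-0.34), Car2 (-0.30) and Cpox (-0.11) were below WT and Car1 (0.24) was above. Orthologs picked for lower values in homozygous cells have the sign of the erythroid median by definition, so this likeness says nothing. The median of all readable genes (-0.04) has that sign too. The part of erythroid cells in these orthologs was not tested. The 4 readable liver markers of 6 summed to 4.27, 3.82 and 4.81, with Fetub and Hrg listed at 0.

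Counted over all measured orthologs, the counting interval left out 0 for 9 of 36 (25%) in homozygous against WT cells, where it did so for 33.2% of all readable genes. Bach1 and Nrip1 were above WT (2 of 36, against 14.1% of readable genes), and Usp25, Samsn1, Donson, Son, Mis18a, Usp16 and Ltn1 below (7 of 36, against 19.1%). In hemizygous against WT cells the count was 13 of 35 (37.1%), against a background of 31.9%. Gabpa, Son, Bach1, Usp16, Hspa13 and Nrip1 were above WT (6 of 35, against 17.3%), and Samsn1, Adamts1, Rcan1, Donson, Mis18a, Sod1 and Cct8 below (7 of 35, against 14.6%). In homozygous against hemizygous cells it was 8 of 35 (22.9%), against 29.6%, with App and Cct8 above (2 of 35, against 9.15%) and Gabpa, Son, Mis18a, Usp16, Nrip1 and Ltn1 below (6 of 35, against 20.5%). These shares lay near the background in each comparison. They rest on the median transcript length and were not recounted with the longest.

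Which side of 0 a ratio falls on is tied to the scaling. The scaling to the readable sum moves all genes upward together, to medians of 0.49, 0.22 and 0.29. By that shift 7 of the 7 genes below WT in homozygous cells had ratios above 0 (0.09 to 0.49), as did 2 of 7 in hemizygous cells (Cct8 and Samsn1) and 5 of 6 in homozygous against hemizygous cells, with Usp16 the exception.

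Among the 30 orthologs with a value of at least 5 in every library, the median fold between highest and lowest library was 1.18, the same as over 768 readable genes at that level. WT was the highest library for 16 of the 30 (53.3%), against 37.1% of the 768. Homozygous was the highest for 2 (6.67%), against 24.0%, and the lowest for 13 (43.3%), against 40.8%. The differences behind this order were small and the genes are not independent, so no test is given.

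In 3 places the starts of 2 genes lay within 1000 bases of each other on opposite strands, an arrangement in which 1 stretch of DNA lies before both. The starts here are the outermost gene ends of the GENCODE annotation. They can differ from the RefSeq starts used for the promoters, and the distances with them. Gart and Son start 554 bases apart, and Son stood at 5.96 times the value of Gart in WT. In hemizygous cells the log2 ratio to WT was -0.20 for Gart (interval -0.45 to 0.05) and 0.15 for Son. The interval of Gart held 0, and scaled to the readable sum the ratios were 0.005 and 0.35. A difference in direction between Gart and Son is therefore not shown. Cryzl1 and Itsn1 start 306 bases apart, with hemizygous ratios of 0.19 and 0.25. Gabpa starts 700 bases from Atp5j, a subunit gene of ATP synthase, with hemizygous ratios of 0.34 for Gabpa and -0.11 for Atp5j.

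Some orthologs overlap at their ends, and the strand setting of the counting is not stated in the sources used. Usp16 and Cct8 share 192 exon bases on opposite strands, Son and Donson 103, Cxadr and Btg3 695, and Gabpa and Atp5j 397. Donson shares 287 bases, 9.17% of its exons, with a gene entry named Atp5o on the same strand. That entry is not among the readable genes. The readable entry of that name stood at 575 in WT, 489 in hemizygous and 505 in homozygous cells, and has no listed overlap with Donson. For Gart 1014 exon bases are shared with an antisense RNA, and 15.5% of its 50-base stretches also occur in other transcripts. Fragments from such stretches could be counted at either gene, and for Donson and the overlapping Atp5o entry no strand setting would tell them apart. Of the 46 orthologs, 39 had under 5% of their stretches in any other transcript.

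Promoter sequences were matched for 36 of the 46 orthologs. For 34 of them the bases after the start were found on the sense strand of an annotated transcript of the gene, and for Btg3 and Rcan1 they were not. The median number of CpGs in the 250 bases was 19 for the 27 orthologs with a WT value of at least 5, and 19.5 for the 6 below 1 in all 3 libraries. At least 10 CpGs stood in 21 of the 27 (77.8%) and 5 of the 6 (83.3%). Over all readable nuclear protein-coding genes the shares were 75.2% of 471 and 20.4% of 196. The 6 orthologs with a promoter sequence that were listed at 0 or below 1 (Chodl, Ncam2, Hunk, Eva1c, Olig2 and Cbr3) had from 5 (Chodl) to 34 (Hunk) CpGs, where the median of the 196 readable genes at that level was 2, and with so few genes this is a description. Readable genes listed at 0 in WT include olfactory receptor and keratin-associated protein genes, such as Olfr202 and Krtap19-2, each with 0 CpGs. The orthologs hold no gene of these families, so the 2 sets differ in make-up. In the sequences printed above, Ncam2 and Hunk carry 32 and 34 CpGs where Samsn1, expressed at 176, carries 3.

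**Figure D4:**
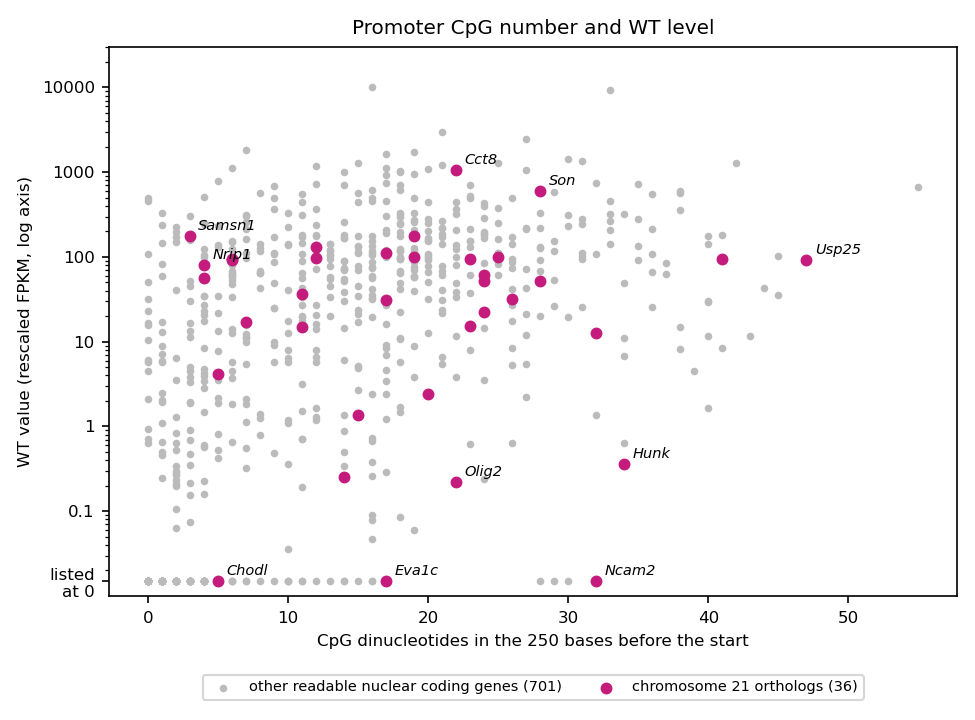
Number of CpG dinucleotides in the 250 bases before the RefSeq start against WT value (log axis) for 36 orthologs and 701 other readable nuclear protein-coding genes. Ncam2 (32) and Hunk (34) lie far right with a value of 0 or below 1, and Samsn1 (3) and Nrip1 (4) lie far left with values of 176 and 80.2.

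The promoters were also searched on both strands for 2 motifs, neither of which contains the other. The letters CCGGAAGT, a core of GABP and other ETS factor sites, stood in 3 of 36 windows (8.33%), those of Usp16, Cct8 and Setd4. They stood in 4.07% of the 737 windows of readable nuclear protein-coding genes and in 2.93% of all 27025 promoter windows of the same length. The match in Cct8 lies near the end of its printed sequence. The letters TATAAA, the TATA box, stood in 3 of 36 windows (8.33%), those of Adamts1, Sod1 and Olig2, against 13.2% of the readable and 12.97% of all windows. A match of letters is no evidence of binding, and its absence in these windows says nothing about the factor.

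Other orthologs of chromosome 21 genes were listed from their position. Of 23 listed for chromosome 16 before Morc3, 22 were found, and of these Dscr3 lies after Morc3 and was not readable. The other 21 were readable, and 15 of them had a value of at least 1. In homozygous against WT cells 1 of the 15 passed the 2-fold size rule, in the lower direction, beside the 4.4% of all readable genes. That gene was Mrpl39, of the mitochondrial ribosome, with 20.01 in WT, 14.1 in hemizygous and 6.29 in homozygous cells and a log2 ratio of -1.53. In hemizygous against WT cells 0 of the 15 passed it, and in homozygous against hemizygous cells 1 did, again Mrpl39 (-1.05). The interferon and interleukin receptor genes of the cluster beside Tmem50b, Ifnar1, Ifnar2, Il10rb and Ifngr2, had WT values from 110 to 147. None of the 31 found on chromosome 16 after Morc3 (Dscr3 included), the 18 on chromosome 17 or the 30 on chromosome 10 was readable, so no value of theirs is compared here.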

How the data were processed

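RNA of LSK cells was sequenced in 3 libraries, 1 per genotype, grouped by the genotype label. The authors deposited FPKM per gene with a status, per the file headers. The submitters' processing notes name TopHat2, Bowtie2 and Cufflinks, with no version, and mm9 as the mouse build. Which annotation and strand setting were used is not given in the sources used here. As the deposited FPKM summed far above what the unit allows, each library was divided by 1 constant, which brings the mean sum to about 1014100 and leaves ratios as deposited.

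Of the 38205 identifiers, 95.4% were found in the GENCODE vM21 annotation of GRCm38, used for gene order, transcript lengths and exon overlaps. Because that build is not that of the files, the coordinates printed are those of the RefSeq promoter table (GRCm38.p6) alone. Usable values stood in runs at chromosome starts. A break was fitted per chromosome by maximum likelihood from how many protein-coding genes averaged 200000 deposited FPKM or more. Runs with a log likelihood gain of at least 5 and at least 20% high genes were kept, the latter minimum chosen after seeing the data. Gene names were taken as the rows give them.

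The measure of difference was the log2 ratio of value + 1, which understates low genes. Low values multiplied by transcript length came out whole in 1 common unit, within 0.05, for 69.1% of 1069 values in WT, 66.4% of 1215 in hemizygous and 69.0% of 1081 in homozygous cells. That unit was taken as 1 fragment. A value of 1 for a 2-kb transcript is about 7.26 fragments in WT. Fragments were estimated from the median transcript length less an assumed 200 bases. They gave SEs and 95% intervals for counting error only, which are approximate. With the longest transcript the estimates can be far higher, in WT 3433 in place of 442 for Gabpa and 1752 in place of 100 for Itsn1. Intervals would then be narrower, and which of them hold 0 was not recounted. Estimated totals by the longest transcript were 5700000, 5980000 and 4840000.

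With 1 library per genotype no test was possible and no p-value is given. All 46 orthologs are given with values or as listed at 0. Log2 ratios are given for those past the size rule, those whose interval left out 0 in any comparison and the 10 highest in WT, beside a few others named with their range. The members and lists were chosen with earlier results of these data known. Alternatives were other scalings, pseudocounts, filters, folds and, for the order of WT levels alone, transcript lengths. The computation was tested on simulated data. Python 3.11.15, numpy 2.4.6, pandas 2.3.3 and matplotlib 3.10.9 were used.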

Additional observations from a re-analysis of the deposited data

How the results depend on the processing

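No paired analysis was possible because each genotype had 1 library, and for the same reason no library could be left out. The count of orthologs past the size rule was 0 in homozygous against WT and in homozygous against hemizygous cells under every alternative run. In hemizygous against WT cells it was 1 (Adamts1) with a pseudocount of 0.1 and 1 with a 1.5-fold rule, and 0 otherwise. When the libraries were scaled to the same sum over the readable genes, the median ratio of the orthologs was 0.42, 0.11 and 0.33 in homozygous against WT, hemizygous against WT and homozygous against hemizygous cells, beside 0.49, 0.22 and 0.29 over all readable genes. With that common upward shift the sign of 30 of 57 ratios of named orthologs changed. Median-ratio scaling changed 2 signs and scaling to the nuclear sum 3. Of the 10 highest orthologs in WT, 5 remained among the 10 highest by fragments with the median transcript and 6 with the longest.

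The background counts moved more. With a pseudocount of 0.1 the readable genes past 2-fold numbered 60, 43 and 74 in the same order, with 5 they numbered 10, 4 and 9, and with a filter of 5 they numbered 22, 8 and 19. Scaling to the readable sum gave 70 in homozygous against WT cells. The depth limits orthologs near a value of 1, such as Adamts1, Jam2 and Cxadr, which rest on about 3.64 to 11.7 estimated fragments per library.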
